A study of Mus musculus with 12 samples.

Results

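The genes described here are 34 genes of cholesterol synthesis, uptake, trafficking and efflux, matched by symbol among the 52636 genes of the deposited count table. They were chosen by name as members of one pathway, and each symbol belonged to 1 gene identifier. The set holds 18 enzymes of synthesis from acetyl-CoA to cholesterol, 5 regulators of the SREBP pathway, 6 genes of sterol entry, lysosomal release, storage and transport, and 5 efflux genes, counting the 2 LXR receptors among the last. All 34 passed the filter on low counts, so each entered the tests across the whole table.

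RNA was sequenced from mouse lung Cx3cr1+ macrophages, the lung phagocytes that carry the fractalkine receptor, in 3 groups of 4 libraries. Lungs were treated with saline in mice labelled IL4Ra WT (saline WT), with bleomycin, a drug that injures the lung and leads to fibrosis, in mice labelled IL4Ra WT (bleomycin WT), and with bleomycin in mice labelled IL4Ra KO (bleomycin KO). Il4ra encodes the receptor chain shared by interleukin-4 and interleukin-13. The labels do not name the driver of the deletion, the strain, age or sex of the mice, the dose, the day of collection, or whether each library is a separate mouse. The tests therefore weigh differences against library-to-library spread, part of which may be technical. A saline group with the deletion was not analysed here, so a difference made by the deletion without bleomycin cannot be seen.

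Cells obtain cholesterol by making it and by taking up lipoproteins, whose cholesterol esters are cut by acid lipase in lysosomes and passed on by the Npc proteins. When membrane cholesterol is low, SCAP carries the SREBP factors to the Golgi for cleavage, and the released SREBP-2 turns on the synthesis genes, while INSIG proteins hold the complex back when sterols are plentiful. Oxysterols formed from surplus cholesterol activate the LXR receptors, which turn on the efflux pumps Abca1 and Abcg1, the lipid carrier Apoe and the E3 ligase Mylip, which lowers lipoprotein uptake. Macrophages that clear dead cells and surfactant take in much cholesterol and depend on this export.

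Library totals ran from 3534193 to 18051113 counts apart from saline WT 2, which held 60598 counts over 4830 genes, so that 3 counts there equalled 32.4 CPM (counts put on one library size) against 0.185 to 0.730 CPM elsewhere and only 17 of the 34 genes had any count. Bleomycin WT 4 also stood apart, with a TMM scaling factor of 0.579 and 31 of the 34 genes with counts. CPM values below are scaled by TMM, and results that rest on either library are given with all 12 libraries and with the 10 others. Il4ra, the deleted gene, stood at 32.4 to 302 CPM in saline WT, 138 to 626 in bleomycin WT and 235 to 473 in the libraries labelled KO. Its means were 332 ± 104 CPM in the libraries labelled KO and 355 ± 203 CPM in bleomycin WT (SD, n = 4), a log2 difference of -0.09 ± 0.58, or -0.35 ± 0.37 in the 10 libraries, and neither passed the edgeR test. The KO label is thus not borne out by this count, although counts over the whole gene include exons that a partial deletion would leave in place. Genotype directions below are drawn between groups as labelled. The macrophage marker list (Cx3cr1, Csf1r, Cd68, Adgre1, Mertk and the 3 C1q genes) summed to 6205 to 13679 CPM in saline WT, 13591 to 18677 in bleomycin WT and 13677 to 17331 in bleomycin KO, and Cx3cr1 itself to 98.1 to 940.4, 7.46 to 113 and 86.2 to 121 CPM. DESeq2, but not edgeR, called Cx3cr1 lower in bleomycin WT than in saline WT.

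The promoters of the synthesis genes shared a sequence feature that the choice of genes did not use. RefSeq windows of 250 bases before to 50 bases after the start (GRCm38.p6) were found for 28 of the 34 genes, not for Stard4, Fdps, Abcg1, Npc1, Fdft1 and Sqle. The NF-Y box, with the letters CCAAT on either strand, was present in 14 of 15 synthesis genes (all but Acat2), in 4 of 5 regulators (all but Scap), in 4 of 4 transport genes and in 0 of 4 efflux genes, against 42.3% of 17492 protein-coding genes with windows of the same length. NF-Y is a general factor that is known to act beside SREBP at sterol-regulated promoters. The sterol element core TCACNCCAC occurred in 1 of the 28 genes, Hmgcs1, against 1.41% of coding genes. Sterol elements with other letters were not searched, so this count does not show that the other promoters lack such an element. The E-box CACGTG occurred in 6 (Abca1, Dhcr7, Hsd17b7, Insig1, Sc5d and Scap) against 8.91%. All motifs were searched on both strands, and 0 matches of different motifs overlapped. Both letter forms of the LXR DR4 element that were searched were found in 0 of the 28 genes and in 0% of coding genes. The search could therefore not set these genes apart, and says only that these letters are not in these windows. LXR elements with other letters were not searched, so any in these windows, that of Abca1 below included, would be unmarked. The 250 bases before the start are shown for Hmgcs1, which holds the sterol core, for Mvd and Msmo1, which hold 2 and 3 NF-Y boxes, and for Abca1, an efflux gene that holds none. The last 3 were picked after the matches were seen. NF-Y boxes and the sterol core are in capitals, and each sequence reads 5′ to 3′ on the gene's strand.
Hmgcs1: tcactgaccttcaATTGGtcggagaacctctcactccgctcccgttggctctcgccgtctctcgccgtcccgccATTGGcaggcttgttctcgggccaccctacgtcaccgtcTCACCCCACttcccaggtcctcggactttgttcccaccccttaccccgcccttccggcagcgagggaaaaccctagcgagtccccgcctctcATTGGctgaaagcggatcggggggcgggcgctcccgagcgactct
Mvd: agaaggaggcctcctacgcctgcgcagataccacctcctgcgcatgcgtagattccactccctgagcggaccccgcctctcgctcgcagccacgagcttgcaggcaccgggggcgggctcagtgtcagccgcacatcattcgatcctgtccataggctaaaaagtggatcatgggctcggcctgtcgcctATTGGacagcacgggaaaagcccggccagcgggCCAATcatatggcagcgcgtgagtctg
Msmo1: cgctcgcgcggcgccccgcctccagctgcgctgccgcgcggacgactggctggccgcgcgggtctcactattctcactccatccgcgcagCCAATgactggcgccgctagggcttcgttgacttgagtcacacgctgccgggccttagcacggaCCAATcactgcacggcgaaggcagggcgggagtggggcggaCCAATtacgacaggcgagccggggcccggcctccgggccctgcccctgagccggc
Abca1: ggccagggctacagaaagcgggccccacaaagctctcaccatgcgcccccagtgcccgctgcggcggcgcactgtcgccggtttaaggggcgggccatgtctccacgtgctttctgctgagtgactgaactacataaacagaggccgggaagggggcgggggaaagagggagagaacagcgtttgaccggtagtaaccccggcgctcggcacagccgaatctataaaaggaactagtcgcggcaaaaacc
These windows lie at chr13:119690101-119690350 on the plus strand (Hmgcs1), chr8:122443423-122443672 on the minus strand (Mvd), chr8:64733579-64733828 on the minus strand (Msmo1) and chr4:53159896-53160145 on the minus strand (Abca1). In Hmgcs1 the sterol core starts 137 bases before the transcription start, between NF-Y boxes that start 176 and 45 bases before it. A match is a description of the letters and not a bound site.

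**Figure D1:**
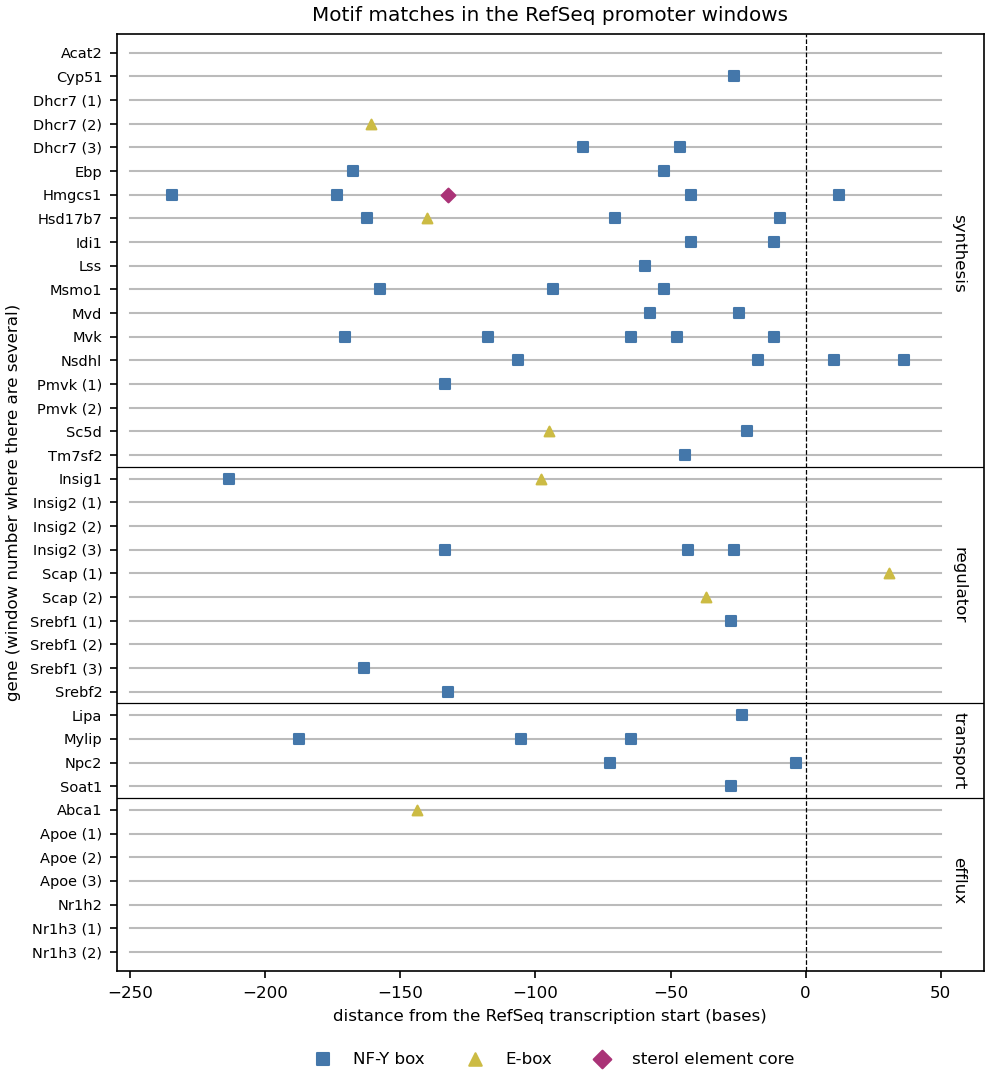
Motif matches in the RefSeq promoter windows of 28 cholesterol genes (rows, with a number where a gene has several windows), by distance in bases from the transcription start. Squares mark NF-Y boxes, triangles E-boxes and the diamond the sterol core of Hmgcs1; the efflux rows at the bottom hold no square.

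With bleomycin and intact Il4ra, most cholesterol genes had higher fitted levels than with saline, but no single gene passed the test across all 12 libraries. The fitted log2 fold change was above 0 for 28 of 34 genes, against 52.9% of the 16679 genes tested, with a median of 0.76 against 0.08. By the edgeR quasi-likelihood test, with p adjusted after Benjamini and Hochberg, 0 of the 34 were past an adjusted p of 0.05, where 0.024% of all genes (4, all higher) were. At an unadjusted p under 0.05, 6 were higher (Apoe, Abcg1, Abca1, Mvd, Nr1h3 and Pmvk) and 0 lower, against 8.47% and 6.19% of all genes. In 3 genes (Mvd, Fdps and Apoe) every bleomycin WT library lay above every saline WT library, against 4.93% of all genes, and in 0 the groups separated on the lower side, against 0.929%. DESeq2 called 1 of the 34 and limma-voom with sample quality weights 1, in both cases Apoe, against 512 and 319 of the 16679 genes. In the 10 libraries edgeR called Apoe alone, 1 of 34 higher and 0 lower, against 0.287% and 0.144% of 18812 genes (0.431% in either direction). At an unadjusted p under 0.05, 10 were higher and 0 lower there, against 6.49% and 7.56%. In the same libraries 29 of 34 were above 0 against 44.1%, the median was 0.64 against -0.14, and 12 genes (Mvd, Idi1, Fdps, Fdft1, Sqle, Lss, Tm7sf2, Lipa, Npc1, Npc2, Soat1 and Apoe) had groups that did not overlap on the higher side, against 11.2% of all genes, while Mylip was the 1 gene of the set on the lower side, against 9.43%. A list for cholesterol biosynthesis was already known to be higher in these libraries, so these counts are no independent evidence of its direction.

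The scaling affects these directions. RLE size factors moved the median of all genes by -0.18 and left 25 of the 34 above 0, with Cyp51, Insig1 and Nr1h2 turning below 0. Relative to the median of all genes, 27 of 34 lay above it with TMM and 27 with RLE.

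Levels of other cells' markers differed between the treatments. By edgeR on 12 libraries 0 markers of the lists below were called in any comparison. Of the 7 neutrophil markers, 7 had a fitted change below 0 between bleomycin WT and saline WT and 6 were lower at an unadjusted p under 0.05, and their summed level was 2550 to 27744 CPM in saline WT, 551 to 1482 in bleomycin WT and 1077 to 1769 in bleomycin KO. Ly6g, a defining neutrophil surface protein, had no count in saline WT 1 and 2, bleomycin WT 4 and bleomycin KO 2. Of 10 alveolar epithelial markers, 9 were below 0 and 5 lower at that level, with sums of 1708 to 2017, 359 to 996 and 318 to 682 CPM. Of 10 alveolar macrophage markers, 9 were below 0 and 3 lower at that level, with sums of 1611 to 4763, 693 to 2451 and 1262 to 2030 CPM. Other lists moved the other way, as the cholesterol genes did. Of the 8 macrophage markers, 6 were above 0, with 4 higher and 1 (Cx3cr1) lower at that level. Their median log2 was 0.80, and 0.56 in the 10 libraries. DESeq2 called Cx3cr1 lower and limma-voom C1qb higher between the WT groups. Of 6 T and NK cell markers, 6 were above 0 and 1 was higher at that level, with sums of 32.4 to 176, 216 to 396 and 250.2 to 423 CPM, and of 6 fibroblast markers 5 were above 0 and 1 was higher, with sums of 43.3 to 143, 197 to 313 and 95.7 to 479 CPM. Endothelial, B cell and dendritic cell sums overlapped between the WT groups with 12 libraries. In the 10 libraries only the dendritic cell sums overlapped. Endothelial sums there were 176 to 328 CPM in saline WT and 66.5 to 123 in bleomycin WT. B cell sums there were 154 to 300 and 81.7 to 137 CPM. Over the 10 libraries edgeR called S100a9 (neutrophil) and Ear1 (alveolar macrophage) lower and Il7r (T and NK cell) higher in bleomycin WT, and in bleomycin KO against saline WT the same 3 genes, with S100a8, Retnlg, Krt79 and Sftpc also lower. Between the WT groups DESeq2 called 4 neutrophil, 2 alveolar macrophage and 1 epithelial marker lower and 1 T and NK cell marker higher, and limma-voom 3, 2, 2 and 1, with 1 endothelial marker lower. Saline libraries thus carried more neutrophil and epithelial RNA and less T and NK cell RNA by these sums. Macrophage sums were also lower on average in saline WT, at 9165 ± 3509 CPM. They averaged 16250.5 ± 2225 in bleomycin WT and 15741 ± 1543 in bleomycin KO (SD, n = 4). Endothelial and B cell sums were higher in saline WT than in bleomycin WT in the 10 libraries. The part of all these in the cholesterol gene differences was not tested. In bulk RNA, fewer cells of a type and less RNA per cell cannot be told apart.

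**Figure D2:**
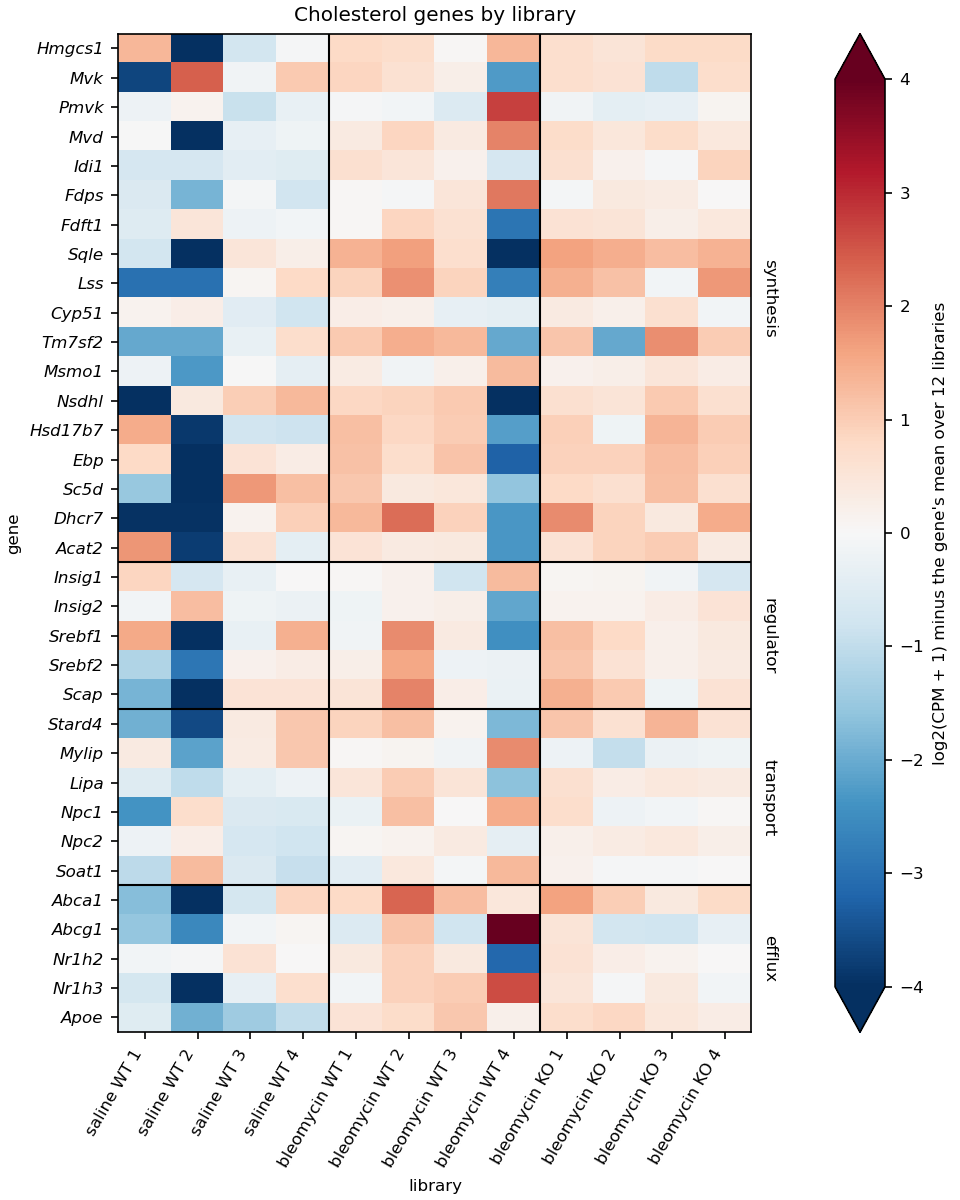
Levels of the 34 genes (rows, by role) in the 12 libraries (columns), as log2(CPM + 1) minus the gene's mean over all libraries. Saline WT 2 and bleomycin WT 4 differ from their groups in many rows, with both dark blue and dark red cells, while the libraries labelled KO hold few strongly coloured cells.

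The 5 efflux genes were all above 0, with a median of 1.77 that fell to 0.68 in the 10 libraries. Apoe (chr7:19696109-19699188, GRCm38), the lipoprotein that carries cholesterol away from macrophages, stood at 13309, 4853, 6950.2 and 9425 CPM in saline WT 1 to 4. In bleomycin WT it stood at 26898, 30645, 38859.9 and 21379 CPM and in bleomycin KO at 30104, 32999, 25599 and 22950.4 CPM. Each of the 8 bleomycin libraries exceeded each of the 4 saline libraries. The group means were 8634 ± 3634, 29445 ± 7340.1 and 27913 ± 4496 CPM (SD, n = 4), a 3.41-fold fitted difference between bleomycin WT and saline WT (log2 1.77 ± 0.33 SE, edgeR adjusted p 0.101). In the 10 libraries the log2 difference was 1.67 ± 0.26 (edgeR adjusted p 0.0314), and the adjusted p ran from 0.00157 to 0.314 over all alternatives. The size of the Apoe difference therefore held in each setting tried, from 1.54 to 2.07 on the log2 scale, while the call did not.

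Abca1 (chr4:53030787-53159895), the pump that loads cholesterol onto lipid-poor apolipoproteins, stood at 38.2, 0, 77.6 and 230.4 CPM in saline WT. It reached 219, 640.4, 299 and 175 CPM in bleomycin WT and 387, 254, 165 and 215 CPM in bleomycin KO. Saline WT 4 overlapped both bleomycin groups, and the log2 difference between the WT groups was 1.86 ± 0.75 (edgeR adjusted p 0.286), or 1.72 in the 10 libraries. Nr1h3, which encodes LXR alpha, stood at 16.5, 0, 21.7 and 44.8 CPM in saline WT, 25.7, 52.8, 56.1 and 171 in bleomycin WT, with 39.1, 26.7, 36.7 and 25.6 in bleomycin KO. Its highest value was in bleomycin WT 4, and its log2 difference of 1.70 between the WT groups fell to 0.68 in the 10 libraries. Nr1h2, which encodes LXR beta, gave 74.3 ± 18.2, 78.5 ± 51.5 and 81.8 ± 14.5 CPM in the 3 groups (SD, n = 4), a log2 difference of 0.07.

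Abcg1 (chr17:31057675-31117988), the pump that passes cholesterol to mature lipoprotein particles, rested on 1 library. It stood at 45.2, 21.6, 124 and 139 CPM in saline WT, 91.4, 285, 75.9 and 7171 in bleomycin WT, with 189, 79.6, 75.8 and 105 in bleomycin KO. Bleomycin WT 4 held 40353 Abcg1 counts, and the 11 other libraries lay between 21.6 and 285 CPM. The fitted log2 difference between the WT groups was 4.46 ± 1.24 (edgeR adjusted p 0.217) with all libraries, 0.88 without bleomycin WT 4 and 0.53 in the 10 libraries.

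**Figure D3:**
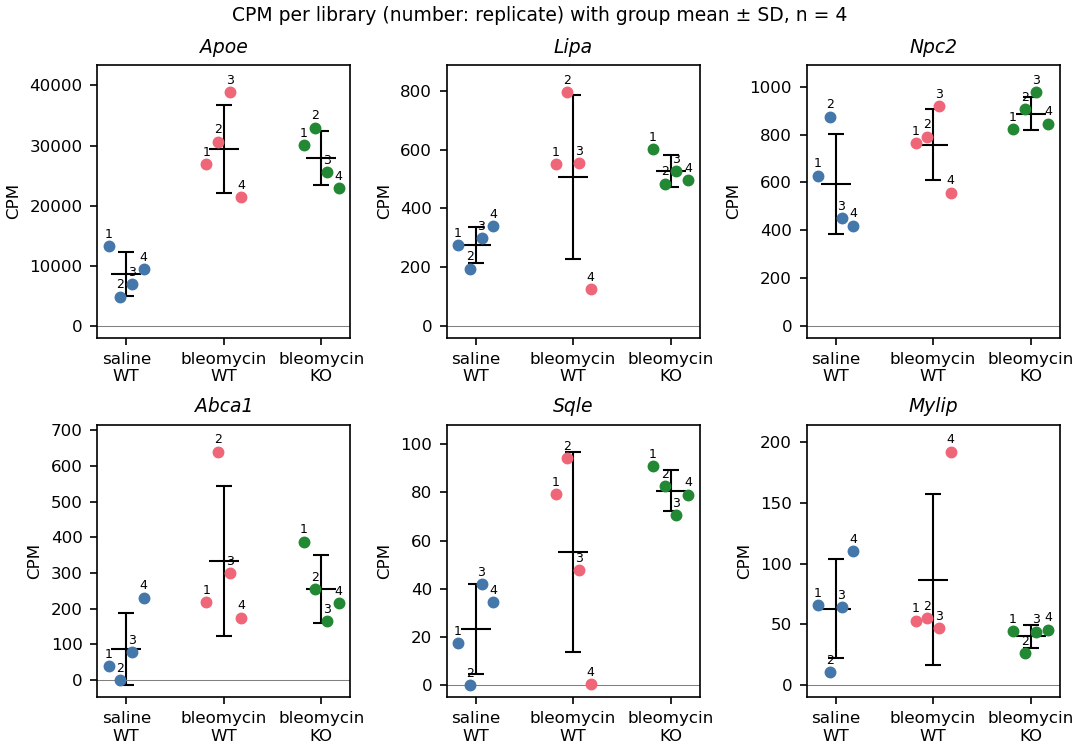
CPM of Apoe, Lipa, Npc2, Abca1, Sqle and Mylip in each library (points, numbered by replicate) with the group mean and SD (bars, n = 4). Apoe separates saline WT from both bleomycin groups; bleomycin WT 4 is the lowest of its group for Apoe, Lipa, Npc2, Abca1 and Sqle and the highest for Mylip.

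Among the synthesis enzymes, 14 of 18 had a fitted change above 0 between bleomycin WT and saline WT (median 0.80), against 52.9% of all genes. At an unadjusted p under 0.05, 2 were higher and 0 lower, against 8.47% and 6.19%. The adjusted threshold was passed by 0 of them, against 0.024%. In the 10 libraries, which keep saline WT 1 with 6 enzymes at 0 counts, 16 of 18 were above 0 (median 0.60) against 44.1%. There 4 were higher at an unadjusted p under 0.05, against 6.49% of all genes. Their summed level was 721, 378, 656 and 639 CPM in the saline WT libraries, 974, 977, 793 and 1076 CPM in bleomycin WT and 991, 880, 1026 and 926 CPM in bleomycin KO. The means were 598 ± 151, 955 ± 118 and 956 ± 65.4 CPM (SD, n = 4). Each bleomycin library had a higher summed level than each saline library. The same must then hold with saline WT 2 and bleomycin WT 4 set aside, which is no further check. The sum is dominated by a few genes: the 3 most abundant enzymes, mostly Cyp51, Msmo1 and Hmgcs1, made up 36.4% to 57.5% of it outside the 2 libraries that stand apart.

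Mvd (chr8:122433601-122443422), the decarboxylase that makes isopentenyl diphosphate, had the smallest p among the enzymes. It stood at 41.8, 0, 33.4 and 36.9 CPM in saline WT, 53.9, 76.6, 54 and 169 in bleomycin WT, with 71.1, 58, 70.2 and 56.9 in bleomycin KO, so that every bleomycin library lay above every saline library. The log2 difference between the WT groups was 1.49 ± 0.62 (edgeR adjusted p 0.299) and 0.69 ± 0.25 in the 10 libraries. Pmvk, the kinase one step earlier, stood at 42.3, 54, 25.7 and 39.2 CPM in saline WT, 46.7, 44.6, 32.7 and 328 in bleomycin WT, with 44.3, 36.9, 38.3 and 52.5 in bleomycin KO. Its log2 difference of 1.54 came from bleomycin WT 4, and without that library it was 0.22.

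Fdps, which builds farnesyl diphosphate, was low throughout, at 1.46, 0, 2.46 and 1.16 CPM in saline WT, 2.8, 2.53, 4.14 and 14.9 in bleomycin WT, with 2.45, 3.82, 3.64 and 2.73 in bleomycin KO. The WT groups did not overlap (log2 1.90, edgeR adjusted p 0.358, and 0.87 in the 10 libraries), but the gene model Gm43738 on the same strand shares 1124 of the 4208 bases that all its annotated exons cover (26.7%). Shares of exonic bases given here are of all annotated exons, which can exceed the exonic length of the deposited table used for levels per kilobase. Idi1, the isomerase that follows Mvd, stood at 0, 0, 0.205 and 0.145 CPM in saline WT, 1.5, 1.24, 0.812 and 0 in bleomycin WT, with 1.51, 0.791, 0.542 and 1.94 in bleomycin KO. It had 3 pooled counts in saline WT against 45 in bleomycin WT, a ratio per scaled depth of 7.09 (95% interval 2.28 to 35.7, counting error only), and 60 in bleomycin KO, a ratio of 7.90 (2.58 to 39.4). Its level is so low that each saline value rests on 2 or fewer counts. Idi1 thus passed the filter on low counts only through bleomycin libraries, and the intervals leave out the spread between libraries. Its ratios, and its place among genes whose groups did not overlap, are therefore no independent evidence of a difference.

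The later enzymes varied around these. Sqle, squalene epoxidase and a rate-limiting step of the late pathway, stood at 17.3, 0, 41.8 and 34.5 CPM in saline WT, 79.3, 94.2, 47.7 and 0.355 in bleomycin WT, with 90.8, 82.4, 70.6 and 79.1 in bleomycin KO. Its 4 KO values lay above every saline value, whereas bleomycin WT 4 lay near 0. Msmo1, the methylsterol oxidase, had means of 77.8 ± 38.7 and 157 ± 73.2 CPM in saline WT and bleomycin WT (log2 0.94, edgeR adjusted p 0.389), with overlapping libraries. Hmgcs1, which makes HMG-CoA, ranged over 0 to 178 CPM in saline WT, 72.5 to 176 in bleomycin WT and 101 to 120.1 in bleomycin KO, and Cyp51, the lanosterol demethylase, over 72.1 to 151, 97.2 to 152 and 117 to 197 CPM. Both overlapped between all groups. Fdft1 (squalene synthase), Ebp (sterol isomerase), Hsd17b7 and Nsdhl (sterol ketone and carbon removal), Sc5d (a desaturase) and Acat2 (acetyl-CoA thiolase) had log2 differences between -0.62 for Acat2 and 0.49 for Hsd17b7. Lss (lanosterol synthase), Tm7sf2 (a sterol reductase) and Dhcr7 (the last reductase of one branch) had differences of 1.16, 1.41 and 1.40, each with no counts in saline WT 1 and 2. Mvk, mevalonate kinase, ranged over 0 to 64.9 CPM in saline WT alone, where its 64.9 CPM in saline WT 2 is 6 counts. For Fdft1, 18.3% of the exonic length overlaps Ctsb on the other strand, and the library kit does not mark strand. Hmgcs1 (12.1%, Gm48342), Idi1 (9.22%, Gm48574) and Tm7sf2 (12.1%, Vps51) also share exonic bases with other genes.

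Of the 5 regulators 3 were above 0, with a median of 0.24. At an unadjusted p under 0.05, 0 were higher and 0 lower, against 8.47% and 6.19% of all genes. Srebf2, the precursor of SREBP-2, stood at 36.7, 10.8, 96.4 and 107 CPM in saline WT, 102, 255, 75.3 and 73.6 in bleomycin WT, with 185, 129, 98.8 and 109.8 in bleomycin KO. Its log2 difference of 0.92 ± 0.61 had an edgeR adjusted p of 0.492, and the WT groups overlapped. Scap, the escort of SREBP, gave 5.59, 0, 34 and 33.9 CPM, 33, 93.9, 27.8 and 19 CPM and 63.1, 48.3, 20.1 and 34.5 CPM in the same order, a log2 difference of 1.05, and shares 13.2% of its exonic length with another transcript. Srebf2 and Scap were the highest of their group in bleomycin WT 2. Insig1, the retention factor that SREBP itself turns on, stood at 128, 43.2, 57 and 69.8 CPM, 72.6, 77.9, 39.8 and 169.9 CPM and 74.3, 75.4, 63.7 and 43.3 CPM, and Insig2 at 29.2, 75.7, 27.8 and 26.6 CPM, 28.4, 36, 37.7 and 6.75 CPM and 34.9, 35.1, 39.6 and 46.9 CPM. Both changed the sign of their log2 difference in the 10 libraries, Insig1 from 0.24 to -0.45 and Insig2 from -0.42 to 0.26. Srebf1, which encodes the SREBP-1 isoforms and is itself an LXR target, ranged over 0 to 83.9, 4.44 to 109 and 32.7 to 67.7 CPM with a difference of -0.18.

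All 6 transport genes had a fitted change above 0 between the WT groups (median 0.43). At an unadjusted p under 0.05, 0 were higher and 0 lower, against 8.47% and 6.19% of all genes. In the 10 libraries 4 of the 6 were higher at that level, against 6.49% of all genes. Lipa (chr19:34492318-34527474), the lysosomal acid lipase that frees cholesterol from lipoprotein esters, stood at 274, 195, 299 and 339 CPM in saline WT, 550.3, 796, 554 and 124 in bleomycin WT, with 603, 484, 527 and 496 in bleomycin KO. All bleomycin libraries but bleomycin WT 4 lay above all saline libraries. The log2 difference between the WT groups was 0.86 ± 0.48 (edgeR adjusted p 0.407) with 12 libraries and 1.03 ± 0.19 with 10 (edgeR adjusted p 0.0518), just outside the threshold. Npc2, the soluble carrier that takes the freed cholesterol to the lysosomal membrane, stood at 628, 876, 452 and 419 CPM in saline WT, 765, 792, 919 and 557 in bleomycin WT, with 822, 907, 977 and 846 in bleomycin KO. Its log2 difference was 0.36 with 12 libraries and 0.69 with 10 (edgeR adjusted p 0.172). Its membrane partner Npc1 stood at 10.5, 97.3, 39.7 and 38.2 CPM, 49.1, 138, 59.9 and 168 CPM and 98, 51.9, 54.5 and 60.8 CPM, with differences of 1.33 and 1.46. Npc1 and Npc2 of saline WT 2, at 97.3 and 876 CPM, were the highest of the saline group.

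Soat1, which esterifies cholesterol for storage, stood at 192, 951, 268 and 209 CPM in saline WT, 298, 528, 375 and 975 in bleomycin WT, with 447, 383, 385 and 398 in bleomycin KO. The highest saline value came from saline WT 2 and the highest bleomycin WT value from bleomycin WT 4, and the log2 difference was 0.46 with 12 and 0.82 with 10 libraries. Mylip, the ligase that marks lipoprotein receptors for degradation, stood at 65.7, 10.8, 64.3 and 110.2 CPM in saline WT, 53, 54.9, 46.7 and 192 in bleomycin WT, with 44.5, 26.2, 43.9 and 45.7 in bleomycin KO. With bleomycin WT 4 included its difference between the WT groups was 0.38, and in the 10 libraries it was -0.66 ± 0.31 (edgeR adjusted p 0.368), the only transport gene below 0 there. Stard4, a cytosolic sterol carrier, ranged over 0 to 24.3, 2.49 to 27.2 and 17.1 to 30.3 CPM (log2 0.40).

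**Figure D4:**
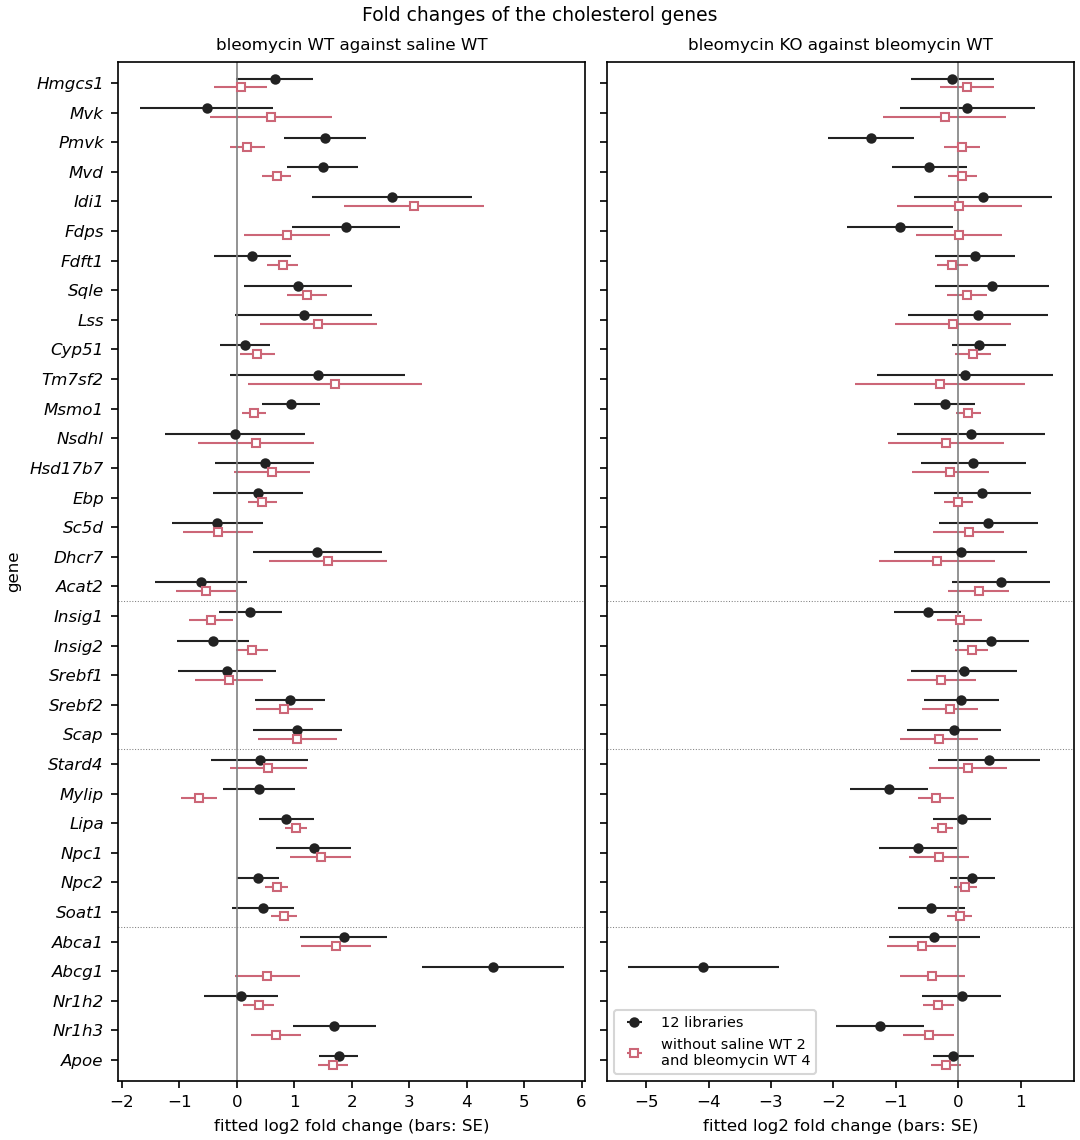
Fitted log2 fold changes with SE bars for the 34 genes, for bleomycin WT against saline WT (left) and bleomycin KO against bleomycin WT (right), with all 12 libraries (filled circles) and with 10 (open squares). On the right the 10-library values lie between -0.59 and 0.33, and Abcg1, at -4.08 with 12 libraries, moves to -0.42.

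Bleomycin WT 4 departed from its group in both directions. Compared with the 3 other bleomycin WT libraries it was lower than all of them in 13 of 18 enzymes and higher than all of them in 5 (Hmgcs1, Pmvk, Mvd, Fdps and Msmo1). Of all 16679 genes tested, 53.2% were lower and 30.9% higher there than in the 3 others, so the library stands apart across the whole table. The 13 include Sqle at 0.355 CPM, Lss at 0.178 CPM and Nsdhl at 0, against a floor of 0.533 CPM for 3 counts there. Its top 3 enzymes (Pmvk, Msmo1 and Hmgcs1) made up 71.4% of the enzyme total. Endothelial markers summed to 703 CPM in this library against 66.5 to 123 CPM in bleomycin WT 1 to 3, alveolar epithelial markers to 996 against 359 to 575 CPM and B cell markers to 355 against 81.7 to 137 CPM. Neutrophil markers summed to 551 against 755 to 1482 CPM. The part of these in its values was not tested.

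Between bleomycin KO and bleomycin WT, as labelled, no cholesterol gene passed the test. Of the 34 genes, 0 were past the adjusted threshold, where 0% of all genes were, and the lowest edgeR adjusted p was 0.934, for Abcg1. At an unadjusted p under 0.05, Abcg1 was the 1 gene lower and 0 were higher, against 3.69% and 0.186% of all genes. DESeq2 and limma-voom called 0 of the 34, and 0 of all 16679 genes. The median log2 difference was 0.06 over the 34 against -0.01 over all genes, and 20 were above 0 against 49.3%. Mylip was the 1 gene whose groups did not overlap, at 46.7 to 192 CPM in bleomycin WT and 26.2 to 45.7 in bleomycin KO, against 0.594% of all genes on the lower side, and 0 separated on the higher side, against 0.905%. Its log2 difference was -1.11 ± 0.63 with 12 libraries and -0.35 ± 0.29 with 10. Apoe differed by -0.08 ± 0.32, Lipa by 0.06 ± 0.47 and Npc2 by 0.23 ± 0.36. Abcg1 (-4.08), Pmvk (-1.39) and Nr1h3 (-1.25) had the lowest values, and without bleomycin WT 4 these were -0.45, 0.04 and -0.50. Leaving that library out changed the sign of 17 of the 34 differences, so no direction is drawn from this comparison. In the 10 libraries 15 of 34 were above 0 against 47.6% of all genes, the median was -0.09 against -0.02, and 0 were lower and 0 higher at an unadjusted p under 0.05, against 0.664% and 0.255%. For 15 of 18 enzymes the median of the KO libraries lay within the range of bleomycin WT 1 to 3. The share of all genes that do so was not computed, so this count says nothing particular to the enzymes.

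Against the same saline libraries, bleomycin KO was compared in the same way, so this comparison and that of the WT groups share a control. Of the 34 genes, 30 were above 0 (51.7% of all genes), the median was 0.64 against 0.04, and 0 were called by edgeR, where 0.018% of all genes were, the lowest adjusted p being 0.171 for Apoe. At an unadjusted p under 0.05, 2 were higher and 0 lower, against 2.96% and 6.07% of all genes. In 7 genes (Mvd, Idi1, Sqle, Msmo1, Ebp, Lipa and Apoe) every KO library lay above every saline library, against 8.17% of all genes, and in 0 every KO library lay below, against 1.04%. Apoe was 3.23-fold higher by the fit (log2 1.69 ± 0.33) and had adjusted p values of 0.00334 to 0.471 over the alternatives. It was called by DESeq2 and limma-voom, which called 370 and 232 of the 16679 genes. It was also called by edgeR on the 10 libraries (log2 1.47, edgeR adjusted p 0.0374). In the 10 libraries 1 gene was called higher and 0 lower, against 0.377% and 0.266% of all genes (0.643% in either direction), 10 were higher and 1 lower at an unadjusted p under 0.05, against 6.35% and 10.5%, and 29 were above 0 against 43.9%. There 12 genes did not overlap on the higher side (Mvd, Idi1, Fdft1, Sqle, Msmo1, Ebp, Insig2, Lipa, Npc1, Npc2, Soat1 and Apoe) against 8.38% of all genes, and Mylip on the lower side against 7.8%. The SD of Sqle was 8.34 CPM in bleomycin KO against 41.5 CPM in bleomycin WT, and that of Soat1 29.8 against 303 CPM, with bleomycin WT 4 the extreme value of both genes.

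To set synthesis beside LXR output within each library, the mean log2(CPM + 1) of the 18 enzymes was compared with that of 5 LXR-driven genes (Abca1, Abcg1, Apoe, Mylip and Srebf1). The difference was -3.18 ± 0.80 in saline WT, -3.91 ± 1.31 in bleomycin WT and -3.06 ± 0.29 in bleomycin KO (SD, n = 4). Bleomycin WT 4 gave -5.77, with low enzymes beside high LXR-driven genes, and without it and saline WT 2 the saline WT and bleomycin WT values were -3.52 ± 0.52 and -3.29 ± 0.52 (n = 3). The differences between the group means were smaller than the SD of bleomycin WT. Saline WT 2, at the lower left of the plot of both means, is the library with few counts.

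**Figure D5:**
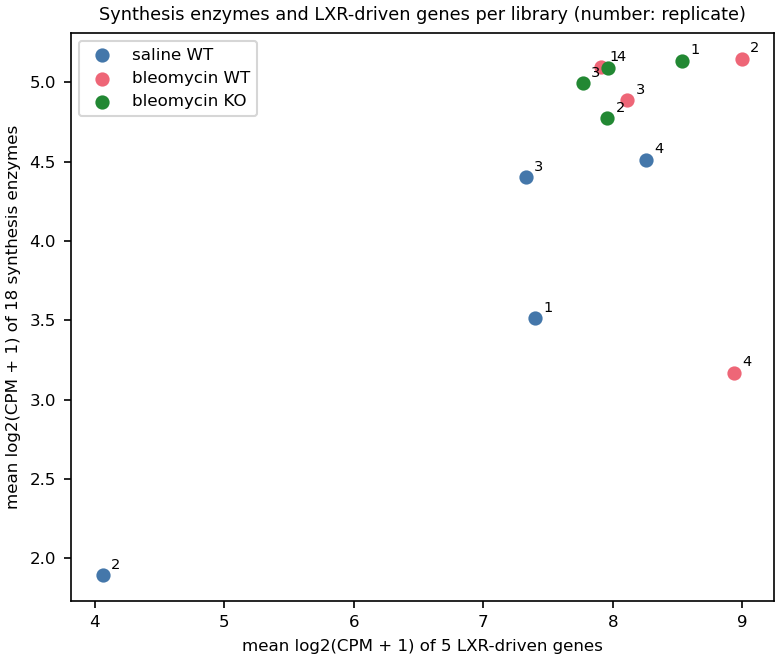
Mean log2(CPM + 1) of 18 synthesis enzymes (vertical axis) against that of 5 LXR-driven genes (horizontal axis) in each library, coloured by group and numbered by replicate. The bleomycin libraries other than bleomycin WT 4 lie together at the upper right, and saline WT 1, 3 and 4 lie below them.

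Per kilobase of exonic length, Apoe was by far the most abundant of the 34 genes, at 11968 CPM per kb averaged over the 12 libraries, first in all 3 groups. Npc2 (226), Lipa (147), Msmo1 (60.2) and Soat1 (53.8 CPM per kb) followed. Abcg1, at 194 CPM per kb between Npc2 and Lipa, owed its place to bleomycin WT 4 and ranked 11 in saline WT and 11 in bleomycin KO. The lowest were Lss (2.57), Fdps (2.42) and Idi1 (0.239 CPM per kb). Apoe, Npc2 and Lipa thus stood above every synthesis enzyme, of which Msmo1 was the most abundant. Neighbours in the middle of the order, such as Nr1h2 (39.0), Ebp (38.9) and Pmvk (38.2 CPM per kb), differed by less than their SD in bleomycin WT.

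Related lists, 6 in number, cover the genes around the pathway, and edgeR called 0 of their 55 tested genes in any of the 3 comparisons with 12 libraries. DESeq2 called 1 of them, Osbpl1a, in bleomycin KO against saline WT, and limma-voom the same gene in both comparisons with saline WT. Of all 16679 genes, DESeq2 called 370 in bleomycin KO against saline WT. There limma-voom called 232, and 319 between the WT groups. Between bleomycin WT and saline WT, 1 of 10 SREBP processing genes (median log2 0.10), 2 of 15 sterol transfer genes (0.30), 1 of 10 other LXR-linked lipid genes (0.01), 0 of 4 oxysterol enzymes (0.09), 0 of 6 isoprenoid genes (0.32) and 0 of 10 SREBP-1 fatty acid genes (0.07) were higher at an unadjusted p under 0.05, and none of them was lower. These 4 of 55 are near the 8.47% of all genes that were higher. Between bleomycin KO and bleomycin WT 0 were higher and 0 lower at that level, against 0.186% and 3.69% of all genes, and between bleomycin KO and saline WT 2 were higher and 1 lower, against 2.96% and 6.07%. Lpl, the lipoprotein lipase that frees fatty acids from lipoproteins, stood at 618, 313, 923 and 604 CPM in saline WT, 1195, 1928, 1761 and 876 in bleomycin WT, with 1534, 1495, 1205 and 1571 in bleomycin KO (log2 1.22 ± 0.40, edgeR adjusted p 0.23). Pltp, a phospholipid transfer protein and also an LXR target, had lower values, 505 ± 218 against 272 ± 141 CPM (log2 -0.90, edgeR adjusted p 0.378). Osbpl1a, an oxysterol-binding protein of late endosomes, stood at 2.92, 0, 6.56 and 2.03 CPM, 27.6, 21.4, 15.6 and 3.91 CPM and 29.8, 26.2, 20.7 and 27.8 CPM in the 3 groups. It was the 1 gene of these lists that edgeR called in the 10 libraries, in bleomycin KO against saline WT (log2 2.74, adjusted p 0.0434), with log2 2.45 and adjusted p 0.0622 for bleomycin WT.

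Of the other genes named from these lists by smallest p, Gramd1b stood at 8.76, 0, 19.9 and 22.4 CPM in saline WT and 23.4, 38.3, 26.3 and 129 CPM in bleomycin WT, so that the WT groups did not overlap, while those of the rest did. Gramd1b, a carrier of plasma membrane cholesterol to the endoplasmic reticulum, and Fbxw7, which marks nuclear SREBP for degradation, had log2 differences of 1.86 and 2.03 that were 0.76 and 0.85 in the 10 libraries. Scd1, the stearoyl-CoA desaturase driven by SREBP-1 and LXR, had lower values, 105 ± 45.1 against 47.1 ± 32.2 CPM (log2 -1.13), and the desaturase Fads1 had 0.87. The oxysterol enzymes Cyp27a1 and Ch25h had -0.60 and 0.64, and Pdss2 and Ggps1, which build longer isoprenoid chains, -1.20 and 0.79.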

How the data were processed

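Per the labels, the SMART-Seq v4 kit (which does not mark strand) gave the cDNA, Nextera XT the libraries and a NovaSeq instrument the single-end reads. The submitters' processing notes name GSNAP, limma and Partek with builds GRCm38 and mm10; versions, the counting method and the treatment of reads matching several places are not named there or in the labels. The authors deposited raw counts per Ensembl gene (52636 genes, 12 libraries), of which 11872 genes are at 0 throughout. The series' design text describes another experiment and was not used.

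From the counts, CPM was computed with TMM scaling. Genes were tested with edgeR 4.0.16, run in R 4.3.3 (filterByExpr, 16679 genes kept, robust quasi-likelihood fit of all 12 libraries with group as the only term), with Benjamini-Hochberg adjusted p under 0.05 over all genes. SEs are the log2 fold change over the square root of F. The test was tested on simulated data with known changes and less spread between libraries than here, which says nothing of its power on these libraries. Alternatives were DESeq2 1.42.0, limma-voom (limma 3.58.1) with quality weights, RLE scaling, no filter, the replicate number as a block, each library left out, and saline WT 2 and bleomycin WT 4 left out together, which an earlier report on these data had doubted. Per-length levels use the exonic size in the deposited gene table. Exon overlaps come from GENCODE vM21, promoter windows from RefSeq (GRCm38.p6).

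The members and lists were chosen with earlier results of these data known. Given in every library were, in each role group, up to 4 genes with the smallest p between the WT groups; Mylip and Sqle were added after their values were seen. From each related list the 2 genes with the smallest p and any called gene are named, except 1 that is not reported here. The depth per library is the total count, 60598 to 18051113.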

Additional observations from a re-analysis of the deposited data

Results flagged for a closer look

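Within each group of 4 libraries, each gene's highest and lowest value was compared with its nearest neighbour by Dixon's ratio. Of 102 gene and group pairs, 13 had a library beyond its critical value, which independent normal values exceed in about 1 in 20. The CPM values were not transformed and the pairs share the same libraries. That rate therefore need not hold here, and the count is no measure of an excess. Bleomycin WT 4 accounts for 6: Abcg1 at 7171 CPM, Pmvk at 328 CPM, Mylip at 192 CPM and Fdps at 14.9 CPM on the high side, and Acat2 at 1.78 CPM and Nsdhl at 0 CPM on the low side. Saline WT 2 was high for Soat1 at 951 CPM and for Insig2 at 75.7 CPM, and saline WT 3 for Nr1h2 at 101 CPM. Srebf2 was high in bleomycin WT 2 at 255 CPM. Among the libraries labelled KO, Mvk was low at 5.18 CPM and Ebp high at 103 CPM in replicate 3, and Mylip was low at 26.2 CPM in replicate 2.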

How the results depend on the processing

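For bleomycin WT against saline WT, edgeR's 4 genes of 16679 became 512 with DESeq2, 319 with limma-voom and quality weights, 1 with RLE scaling, 780 with no filter on low counts, 2 with the replicate block and 81 without both saline WT 2 and bleomycin WT 4, and ran from 1 to 11 with 1 library left out, the highest being without bleomycin WT 4. The cholesterol genes among them numbered 1 with DESeq2, 1 with limma-voom, 2 with no filter (Apoe and Abcg1) and 1 without both libraries, and 0 with RLE scaling, the block or any 1 library left out. For bleomycin KO against bleomycin WT, no filter gave 243 genes, 1 of them a cholesterol gene (Abcg1, log2 -3.90, which rests on bleomycin WT 4), and every other setting gave 0 cholesterol genes. For bleomycin KO against saline WT, the 3 genes became 370 with DESeq2, 232 with limma-voom, 1 with RLE scaling, 694 with no filter, 1 with the replicate block and 121 without both libraries, and ran from 0 to 18 with 1 library left out, the highest being without bleomycin WT 4, and 10 without saline WT 2; 1 cholesterol gene, Apoe, was called by DESeq2, by limma-voom, with no filter and without both libraries. The cause of these changes was not tested. Replicate numbers showed no pairing of the libraries: 0 of 12 same-numbered pairs had correlated deviations over 0.1 (-0.18 to 0.05), and 0 of 12 libraries were closest to their own number. Saline WT 2 and bleomycin WT 4 weigh on the group means behind these deviations, so a pairing could have been missed. The median of all genes between the WT groups moved by -0.18 with RLE scaling, -0.21 with DESeq2, -0.32 with no filter, 0.11 with the block and -0.23 without both libraries. Signs of differences that passed no threshold changed for 17 of the 34 genes without bleomycin WT 4, 19 without both libraries and 18 with limma-voom in bleomycin KO against bleomycin WT, and for 7, 5 and 7 in bleomycin WT against saline WT. With the median over genes in place of the mean, enzymes minus LXR-driven genes gave -2.08 in saline WT and -1.34 in bleomycin KO. The bleomycin WT value is not given here, and no difference between groups is drawn from these values. The number of libraries limits these values, and the depth of saline WT 2 those of the saline comparisons on 12 libraries.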
